A study of Mus musculus with 23 samples.

Results

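B16 and EO771 tumors were compared directly, as 3 tumors against 3. These 6 libraries were chosen by their labels alone and are 6 of the 23 samples in the series, which also holds 9 whole tumors of the LL2, MC38 and Pan02 models and 8 libraries of sorted cancer-associated fibroblasts (CAFs). The study profiled transplantable mouse tumor models by RNA sequencing to see how their tumor microenvironment (TME) differs. It placed B16 and EO771 together as models whose expression profiles point to few immune cells, and the question here is what separates these 2 models. B16 tumors grew from the B16-F10 line, a melanoma line, and EO771 tumors from the EO771.LMB line, a breast carcinoma line. All 6 were untreated, grown from 500000 cells injected under the skin of adult female C57BL/6 mice, so that host strain, sex and site were shared. Animals carried a tumor on the right flank or on both flanks and the labels do not tie tumors to animals, so 2 tumors of a model may come from 1 mouse, and the p-values measure the spread between these tumors. RNA came from a piece of whole tumor and was enriched by its poly(A) tail, and reads were counted without regard to strand. Each value therefore sums cancer cells and host cells, and fewer cells of a type cannot be told apart from less RNA per cell.

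A transplanted tumor is built from the injected cancer line and from the host cells that enter it. Macrophages, the most common host immune cell of many tumors, live on colony-stimulating factor signals through the receptor encoded by Csf1r and are drawn in and held there by chemokines. CAFs lay down collagen and other matrix, and T cells and natural killer (NK) cells release interferon gamma, which raises antigen presentation genes in the cells around them. Melanoma cells keep the pigment program of the melanocyte, driven by the transcription factors encoded by Mitf and Sox10, whereas mammary carcinoma cells derive from an epithelium that carries keratins and cadherin-based junctions.

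Each gene is given by 1 transcript of the deposited table, as CPM, its count relative to the library total after TMM scaling, and the totals ran from 10035821 to 20208411.5 counts in the 6 tumors. CPM is not divided by gene length, so it compares tumors for a gene and not genes with each other. Log2 fold changes are EO771 minus B16, so a positive value means higher in EO771, and adjusted p is from edgeR's quasi-likelihood test over the 14298 genes tested of 24940 listed. A gene was called when adjusted p was under 0.05 and the change at least 1 on the log2 scale, that is 2-fold. The models were far apart. Of the genes tested, 2699 were called higher in EO771, 18.9%, and 2538 higher in B16, 17.8%, so that 36.6% were called in all. Without the 2-fold limit 70.5% passed adjusted p under 0.05. The 2 groups did not overlap in CPM for 75.1% of the genes, with EO771 higher in 38.1% and B16 higher in 37%. The median log2 fold change over all tested genes was 0.01, which TMM scaling centres near 0. Counts within a gene list are read against these shares. A gene near 0 in 1 model entered the test through the other, so the filter on low counts set its direction in part. Among the called genes, 333 of those higher in EO771 and 349 of those higher in B16 lay past 5 on the log2 scale, or 32-fold. Libraries of the same model correlated at 0.985 to 0.992 on log2 CPM and libraries of different models at 0.725 to 0.753. The spread within a model was wider in B16, where the median coefficient of variation of well-measured genes was 10.2%, against 5.75% in EO771.

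**Figure D1:**
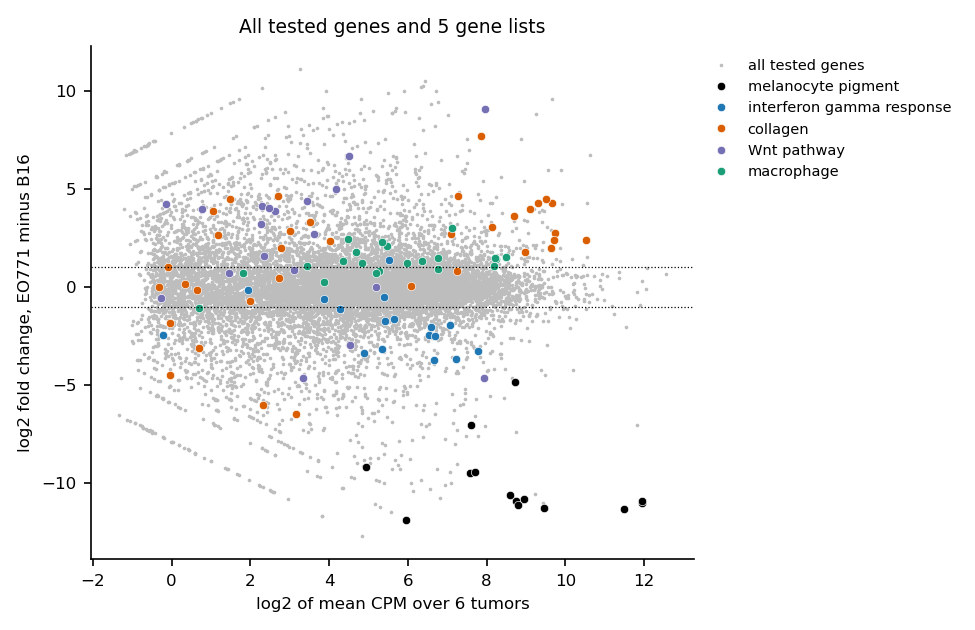
Log2 fold change (EO771 minus B16, vertical axis) of each tested gene against its mean level (log2 CPM, horizontal axis), with grey points for all 14298 tested genes, coloured points for 5 gene lists and dotted lines at 1 and -1. Pigment genes form a group near the bottom of the plot around their median of -10.89, interferon gamma response genes lie mostly below 0, and collagen and macrophage genes mostly above 0.

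The labelled origin of the B16 tumors was plain in their pigment genes. All 14 listed melanocyte pigment genes were tested and all 14 were higher in B16, with a median log2 fold change of -10.89, and their summed level was 25532 to 31527 CPM in B16 against 40.3 to 48.7 CPM in EO771. Tyr, which encodes tyrosinase, the rate-limiting enzyme of melanin synthesis, read 941, 946 and 686 CPM in the B16 tumors and 0.528, 0.34 and 0.349 CPM in the EO771 tumors. No EO771 tumor came near the lowest B16 tumor, and the log2 fold change was -10.95 ± 0.23 (SE), adjusted p = 5.5e-10. Pmel, which encodes the fibril protein of the pigment granule, read 7415, 9348 and 6937 CPM in B16 and 4.38, 4.08 and 3.57 CPM in EO771 (log2 fold change -10.93). Dct and Tyrp1, which encode enzymes downstream of tyrosinase, changed by -11.03 and -11.36 on the same scale. Slc45a2, a transporter of the pigment granule, changed by -11.3. Tyr and Slc45a2 were near 0 in EO771 and passed the filter on low counts through the B16 tumors. The direction of such genes was set in part by the filter, so the number 14 is no support for it. In the 9 tumors of the other models Tyr read 0.205 to 0.894 CPM (median 0.574) and Pmel 3.56 to 11.8 CPM (median 5.94), as CPM scaled over all 15 tumors, so that the EO771 values lay within the range of tumors with no melanocyte origin. The source of those few counts in tumors other than B16 was not tested.

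The promoters of these pigment genes were also searched for a DNA word already known from such promoters. The DNA word TCATGTG, with its reverse complement CACATGA, is the form of E-box that MITF is known to bind in pigment gene promoters. In RefSeq promoters of the GRCm38.p6 build (mm10), which run from 250 bases before to 50 bases after a transcript's start, 9 of the 14 pigment genes had an entry. TCATGTG stood on either strand in 7 of these 9, 77.8%, against 4.31% of all genes with a promoter and 3.77% of all promoters. The shorter word CATGTG, which every TCATGTG contains, stood in 8 of 9, 88.9%, against 15.9% of all genes. A match describes the letters of this window and is not evidence of binding in these tumors. The 250 bases before the start of 5 of the genes are shown 5′ to 3′ on the gene's strand, with TCATGTG, its shorter form CATGTG and their reverse complements in capitals, because they hold this word; the 5 were taken from the 7 genes with it.
Tyr (chr7:87493513-87493762, - strand): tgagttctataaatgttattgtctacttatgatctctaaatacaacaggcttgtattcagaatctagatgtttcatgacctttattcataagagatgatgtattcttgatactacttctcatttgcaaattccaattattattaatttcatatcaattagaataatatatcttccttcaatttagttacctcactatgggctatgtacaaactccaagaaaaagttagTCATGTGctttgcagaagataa
Tyrp1 (chr4:80833963-80834212, + strand): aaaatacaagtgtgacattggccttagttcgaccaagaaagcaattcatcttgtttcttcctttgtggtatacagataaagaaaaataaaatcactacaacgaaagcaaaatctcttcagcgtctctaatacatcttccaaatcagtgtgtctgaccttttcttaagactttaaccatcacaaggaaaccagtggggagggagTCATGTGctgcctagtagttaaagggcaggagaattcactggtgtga
Dct (chr14:118052247-118052496, - strand): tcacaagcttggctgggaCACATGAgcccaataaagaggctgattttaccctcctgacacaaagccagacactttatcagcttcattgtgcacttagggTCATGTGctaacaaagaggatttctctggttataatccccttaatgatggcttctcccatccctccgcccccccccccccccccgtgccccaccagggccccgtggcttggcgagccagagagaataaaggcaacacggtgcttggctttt
Trpm1 (chr7:64153585-64153834, + strand): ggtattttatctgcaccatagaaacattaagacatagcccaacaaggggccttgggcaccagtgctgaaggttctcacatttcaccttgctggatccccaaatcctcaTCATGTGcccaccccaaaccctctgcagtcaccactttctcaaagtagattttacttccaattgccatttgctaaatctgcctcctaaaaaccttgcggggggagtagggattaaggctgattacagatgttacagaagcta
Mc1r (chr8:123406832-123407081, + strand): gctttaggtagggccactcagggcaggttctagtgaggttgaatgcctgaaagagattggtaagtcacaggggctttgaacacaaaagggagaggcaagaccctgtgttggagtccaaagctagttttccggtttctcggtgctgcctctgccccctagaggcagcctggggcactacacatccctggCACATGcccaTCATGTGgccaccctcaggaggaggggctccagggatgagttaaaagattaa
TCATGTG or CACATGA begins 22 bases before the start in Tyr, 47 in Tyrp1, 142 in Trpm1 and 52 in Mc1r, and Dct holds it at 151 and 232 bases before its start. Trpm1, which encodes a melanocyte cation channel, and Mc1r, the receptor for melanocyte-stimulating hormone, were among the 14 higher in B16, with log2 fold changes of -11.16 and -9.44.

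The regulators of the melanocyte state followed the pigment genes. Of the 8 tested regulators, 6 were higher in B16 and 0 in EO771 (median log2 fold change -3.07). Sox10 and Pax3 passed the filter on low counts through the B16 tumors, so the limit given for pigment genes holds for them. Mitf, the master regulator of the pigment program, read 1032, 718 and 558 CPM in B16 and 30.7, 30.03 and 31.4 CPM in EO771. The 3 EO771 tumors were close to each other and all below the lowest B16 tumor, with a log2 fold change of -4.65 ± 0.22 (SE), adjusted p = 6.3e-08. Sox10, a neural crest factor that acts upstream of Mitf, read 1152, 1317 and 1107 CPM in B16 and 0.844, 0.51 and 0.871 CPM in EO771 (log2 fold change -10.61). Pax3, another neural crest factor, read 248, 259 and 229 CPM and 0.211, 0.17 and 0.261 CPM (log2 fold change -10.11). Tfap2a, a factor of neural crest and skin, changed by -1.47, and the receptor genes Kit and Erbb3, which serve melanoblasts, by -2.51 and -3.64. The 9 tumors of the other models gave 7.3 to 29 CPM (median 14.3) for Mitf.

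The epithelial label of EO771 was only partly visible in its RNA. Of 24 listed epithelial genes, 11 passed the filter on low counts, and 5 of these were higher in EO771 and 0 in B16 (median log2 fold change 1.01). Krt8, a keratin of simple epithelia, read 2.99, 3.52 and 1.62 CPM in B16 and 1223, 1199 and 1259 CPM in EO771. All 3 EO771 tumors stood far above the B16 tumors, with a log2 fold change of 8.86 ± 0.22 (SE), adjusted p = 1.3e-09. The list summed to 18.9 to 27 CPM in B16 and 1239.8 to 1305 CPM in EO771. Elf3, an epithelial transcription factor, was also higher in EO771, with 2 counts in all of B16 and a ratio of group totals of 153-fold (95% counting interval 42 to 1272). It passed the filter through the EO771 tumors alone, which set its direction, so it adds no support to the count of 5. Ovol1, a repressor of the mesenchymal state, and Spint1, an inhibitor of epithelial surface proteases, changed by 4.16 and 1.85 at low levels, and the desmosome gene Dsp by 1.03. Cdh1, which encodes E-cadherin, the core adhesion protein of epithelial junctions, was low in both models, with 2.19, 3.95 and 3.2 CPM in B16 and 4.01, 4.68 and 6.8 CPM in EO771. The groups did not overlap, and Cdh1 was not called (log2 fold change 0.69 ± 0.28 (SE), adjusted p = 0.052). Its adjusted p was 0.0404 with no filter on low counts, 0.0231 with the replicate block, 0.0334 without B16 tumor 2 and 0.0339 without EO771 tumor 1, and the change was under 2-fold in each. Epcam, an epithelial surface protein used to sort carcinoma cells, read 0.398, 0.304 and 0.0984 CPM in B16 and 0.95, 0.596 and 0.871 CPM in EO771 and fell under the filter, so it was not tested. Its 3 EO771 values lay above its 3 B16 values.

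Mammary regulators were mixed. Of 7 tested, 3 were higher in EO771 and 2 in B16. Tbx3, a factor of early mammary development, and Areg, a ligand of the epidermal growth factor receptor made in the mammary gland, were higher in EO771, with log2 fold changes of 6.67 and 5.88, as was the receptor gene Erbb2 (1.28). Esr1, which encodes estrogen receptor alpha, was lower in EO771, with 12.5, 12.7 and 7.67 CPM in B16 and 2.11, 1.96 and 2.0 CPM in EO771 (log2 fold change -2.42 ± 0.25 (SE), adjusted p = 1.6e-05). Stat5a, a transducer of prolactin signals, was also lower in EO771 (log2 fold change -1.8). Elf5, a factor of the milk-secreting lineage, fell under the filter.

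Mesenchymal genes were called mostly towards EO771, with 5 of 10 tested members higher in EO771, 1 in B16 and 4 not called (median log2 fold change 2.24). Twist1 read 0.796, 1.15 and 1.57 CPM in B16 and 54.5, 56.7 and 59.6 CPM in EO771 (log2 fold change 5.51 ± 0.18 (SE), adjusted p = 5.5e-09). Its relative Twist2 changed by 5.78, although 46.5% of its exon length is shared with another gene and the counting ignored strand. Both encode factors that repress E-cadherin and are also made by fibroblasts. Prrx1, another mesenchymal factor, changed by 4.23, and Snai1 and Zeb1, further repressors of E-cadherin, by 4.64 and 3.58. Snai2, a relative of Snai1, was not called (-0.30), and nor were the other 3 of the 4 members with the highest CPM, at 0.45 for the intermediate filament gene Vim, 0.90 for the fibronectin gene Fn1 and -0.45 for the repressor gene Zeb2. Cdh2, which encodes N-cadherin, a cadherin of neural and mesenchymal cells, went the other way, with 39.3, 39.8 and 36.6 CPM in B16 and 1.32, 1.28 and 2.0 CPM in EO771 (log2 fold change -4.67 ± 0.18 (SE), adjusted p = 1.5e-08).

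Among called genes with at least 10 CPM on the higher side, Klk6, a secreted serine protease on chr7:43825450-43832027 (mm10), was listed at 0 in all 3 B16 tumors and read 13, 19.2 and 25.6 CPM in EO771. Set against the floor of 3 counts over the B16 group, it was at least 284-fold higher in EO771. Aqp3, a channel for water and glycerol found in epithelia, read 0, 0.182 and 0.0984 CPM in B16 and 137, 174 and 208 CPM in EO771 (log2 fold change 10.55). Hand1 and Esx1, transcription factors known from trophoblast and early embryo, and Wfdc2, a secreted protein of epithelial tumors, were also among the 10 largest, with log2 fold changes of 10.27, 9.6 and 10.04. Esx1 was even across the EO771 tumors, at 1609.6, 1599 and 1606 CPM, against 1.69, 2.31 and 2.07 CPM in B16. Nr5a1, a nuclear receptor of the adrenal gland and gonad, and Tex19,1, a germ cell and placenta gene, changed by 10.01 and 9.91. Completing the 10 were 4930550L24Rik (10.2), the germ cell factor gene Sohlh2 and Chit1, a chitinase of activated macrophages. Sohlh2 and Chit1 had only 1 and 3 counts in all of B16, and the ratio of group totals was 1432-fold (95% counting interval 256 to 56590.5) for Sohlh2 and 818-fold (95% counting interval 279.6 to 3971) for Chit1.

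On the B16 side, Syt9, a calcium sensor of vesicle release, read 56.7, 56.5 and 57.2 CPM in B16 and was listed at 0 in all 3 EO771 tumors, so it was at least 799-fold lower there. Alx1, a homeobox factor of craniofacial mesenchyme and melanocytes, and the uncharacterized A830019P07Rik were also listed at 0 in EO771, at least 388-fold and 378-fold lower. Oca2, Tyrp1, Slc45a2 and Trpm1, all pigment genes, were among the 10 largest, and the other 3 were Gpr37, a receptor of glia, Gsdmc, a pore-forming gasdermin, and Dcdc2a, a microtubule-binding protein. Oca2, Gpr37, Gsdmc and Dcdc2a had 1 count each in all of EO771. For Oca2, which sets the acidity of the pigment granule, the ratio of group totals was 5059-fold (95% counting interval 908 to 199860.0).

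By absolute difference rather than fold, Rhob, Col1a1, Fbln2 and Sdc1 were among the 5 that led on the EO771 side. Rhob, a small GTPase of the endosome, had a mean of 145 ± 37.2 CPM (SD, n = 3) in B16 and 2861 ± 271 CPM (SD, n = 3) in EO771. Sdc1, a cell-surface proteoglycan of epithelia and plasma cells, had 97.7 ± 9.54 CPM (SD, n = 3) and 1832 ± 80.8 CPM (SD, n = 3). On the B16 side Pmel, Dct, Gpnmb and Tyrp1 were among the 5. Gpnmb, a glycoprotein of melanosomes that macrophages also make, read 6216, 8573 and 6784 CPM in B16 and 50.3, 59.6 and 49.7 CPM in EO771 (log2 fold change -7.08).

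Several of these EO771 genes were also counted in the 2 EO771 libraries of sorted CAFs, which were gated as CD45-negative and FAP-positive cells and are given by the authors as RPKM (reads scaled to gene length and library size), a scale that cannot be set beside CPM. Krt8 read 492 and 495 RPKM there, Wfdc2 204 and 230.5 RPKM, Esx1 734 and 743 RPKM and Aqp3 65.9 and 55.3 RPKM. Hand1 read 49.3 and 46.5 RPKM. The gate therefore held RNA of genes that mark the EO771 tumors by their largest folds, and how much of it came from cancer cells was not tested. B16 CAFs were not analysed here.

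Myeloid genes differed between the models. Adgre1, which encodes the macrophage surface protein F4/80 (chr17:57358686-57483529, mm10), read 40.1, 53.8 and 44.5 CPM in the B16 tumors and 114, 127 and 109.9 CPM in the EO771 tumors. The lowest EO771 tumor was above the highest B16 tumor, and the log2 fold change was 1.34 ± 0.12 (SE), adjusted p = 5.2e-06. Itgax, which encodes CD11c, an integrin of dendritic cells and many macrophages (chr7:128129568-128150657), read 10.4, 17.1 and 11.3 CPM in B16 and 87.9, 113 and 89.9 CPM in EO771. Here the groups were further apart, with a log2 fold change of 2.89 ± 0.19 (SE), adjusted p = 5.6e-07. Leaving out any 1 tumor moved Adgre1 only from 1.22 to 1.44 and Itgax from 2.75 to 3.13.

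Over the macrophage list, 15 of 21 tested members were higher in EO771 and 0 in B16, a share of 71.4% against the 18.9% of all tested genes, and the median log2 fold change was 1.32. The other 6, Cd68, Fcgr1, Cd163, Marco, Folr2 and Siglec1, were not called, and the lowest change of the list was -1.05. Without B16 tumor 1, or without EO771 tumor 1, 1 member was called higher in B16. Summed over the list, the level was 796 to 1274 CPM in B16 and 2913 to 3029 CPM in EO771, with no overlap. Flow cytometry in the paper did not show this direction for the share of macrophages. It found macrophages at a similar share of living cells in most models, and at a slightly larger share in B16 and MC38. Within macrophages, the fraction positive for CD206, the mannose receptor, was smallest in B16. The paper also reported that macrophage estimates from RNA were well above flow cytometry in every model except B16. The reason for the difference between RNA and cell shares was not tested. Csf1r, the receptor for the main macrophage survival factor, read 37.8, 70.1 and 63.4 CPM in B16 and 149.6, 164 and 172 CPM in EO771 (log2 fold change 1.49 ± 0.19 (SE), adjusted p = 6.3e-05). Mrc1, the mannose receptor of tissue-resident macrophages, read 35.9, 21.5 and 35.3 CPM and 209, 223 and 314 CPM. It gave the largest change of the list, 3.01 ± 0.22 (SE), adjusted p = 1.2e-06. Cd14, the lipopolysaccharide co-receptor, changed by 2.46. The complement genes C1qa, C1qb and C1qc, made mainly by macrophages, changed by 1.52, 1.42 and 1.48, and the lysozyme gene Lyz2 by 1.08.

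The other myeloid lists did not all follow. Of 14 neutrophil genes, 7 passed the filter on low counts and were higher in EO771, at low levels. Several passed it through the EO771 tumors alone, so their direction was set in part by the filter and their number is no support for it. Ly6g, S100a9, Cxcr2, Retnlg, Camp, Ngp and Ltf were not tested. S100a9, the partner of S100a8, read 0.199, 0.182 and 0.246 CPM in B16 and 0.211, 0.51 and 0.349 CPM in EO771, and Camp and Ngp were listed at 0 in all 6 tumors. S100a8, a calcium-binding protein that fills the neutrophil cytosol, read 0.0995, 0.121 and 0.0984 CPM in B16 and 0.95, 1.11 and 2.44 CPM in EO771 (log2 fold change 3.67 ± 0.58 (SE), adjusted p = 2.9e-04). Mmp9, a gelatinase stored in neutrophil granules and made by macrophages too, read 0.697, 4.31 and 2.46 CPM in B16 and 55, 49.9 and 58.6 CPM in EO771 (log2 fold change 4.35), and Csf3r, the receptor for granulocyte colony-stimulating factor, and the decoy receptor gene Il1r2 changed by 1.18 and 1.75. Trem1, a receptor that amplifies inflammation, had 2 counts in all of B16, and the ratio of group totals was 107-fold (95% counting interval 29.1 to 887). The monocyte list was called in both directions, with 1 of 8 members higher in EO771 and 2 in B16. For a list of 8, neither share stood far from the 18.9% and 17.8% of all tested genes. Nr4a1, an orphan nuclear receptor of patrolling monocytes that many other cells induce as an early response gene, read 161, 166 and 152 CPM in B16 and 31.6, 27.4 and 36.2 CPM in EO771 (log2 fold change -2.33 ± 0.11 (SE), adjusted p = 6.6e-08). Ly6c2, the surface marker of inflammatory monocytes, was lower in EO771 too (-1.33), and Treml4, a receptor of patrolling monocytes, was higher (2.05). The chemokine receptor gene Ccr2, which brings monocytes into tissue, was not called (0.56), nor were F13a1 (0.13) and Plac8 (-0.15).

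Dendritic cell genes were also divided. Of 15 tested, 3 were higher in EO771 and 2 in B16, and the median log2 fold change was 0.15. Itgax and Wdfy4 (1.28), a gene needed for cross-presentation, were higher in EO771, as was Cd83 (1.01), a surface protein of mature dendritic cells. The other 3 of the 4 members with the highest CPM were not called, with values of -0.80 for Sirpa, a receptor of type 2 dendritic cells and macrophages, -0.67 for Irf8, a factor of the lineage, and 0.00 for Fscn1, an actin bundler of mature dendritic cells that cancer cells also make. Xcr1 and Clec9a, the receptors that mark the cross-presenting type 1 dendritic cell, were the members higher in B16. Xcr1 read 1.39, 3.22 and 1.52 CPM in B16 and 0.317, 0.51 and 0.436 CPM in EO771 (log2 fold change -2.32 ± 0.45 (SE), adjusted p = 0.0011). Clec9a changed by -1.16 ± 0.46 (SE), adjusted p = 0.046, and its groups overlapped. The count higher in B16 was 1 when B16 tumor 2, B16 tumor 3 or EO771 tumor 1 was left out. In neither direction did the share stand far from the 18.9% and 17.8% of all tested genes. Itgax and Wdfy4 were thus called on the other side from Xcr1 and Clec9a. Batf3 and Itgae, also on the list, were not called, and Clec9a missed the threshold with DESeq2 (adjusted p = 0.145).

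Of 7 mast cell genes, 5 passed the filter on low counts and were higher in EO771, for which the same limit holds as for neutrophil genes, with a summed level of 5.47 to 14.6 CPM in B16 and 33.5 to 59.3 CPM in EO771. Cpa3 and Mcpt4, proteases of mast cell granules, changed by 3.19 and 3.09, the tryptase and chymase genes Tpsb2 and Cma1 by 3.01 and 2.2, and Gata2, a factor of the lineage, by 1.5. The pan-leukocyte list gave 6 of 10 higher in EO771 and 0 in B16, with 2 higher in EO771 when B16 tumor 1 was left out. Laptm5, Tyrobp and Fcer1g, which encode a lysosomal protein and adaptors of immune receptors, changed by 1.24, 1.17 and 1.16. Arhgdib, a regulator of small GTPases that is not confined to leukocytes, and Itgb2, the common chain of leukocyte integrins, were not called (-0.74 and 0.57). Ptprc, which encodes CD45 and marks leukocytes as a whole, read 26.7, 45.3 and 31.2 CPM in B16 and 59.7, 75.6 and 76.4 CPM in EO771 (log2 fold change 1.03 ± 0.18 (SE), adjusted p = 6.9e-04). The macrophage marker therefore moved with the leukocyte marker, and the part that total leukocyte content had in the macrophage result was not tested.

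**Figure D2:**
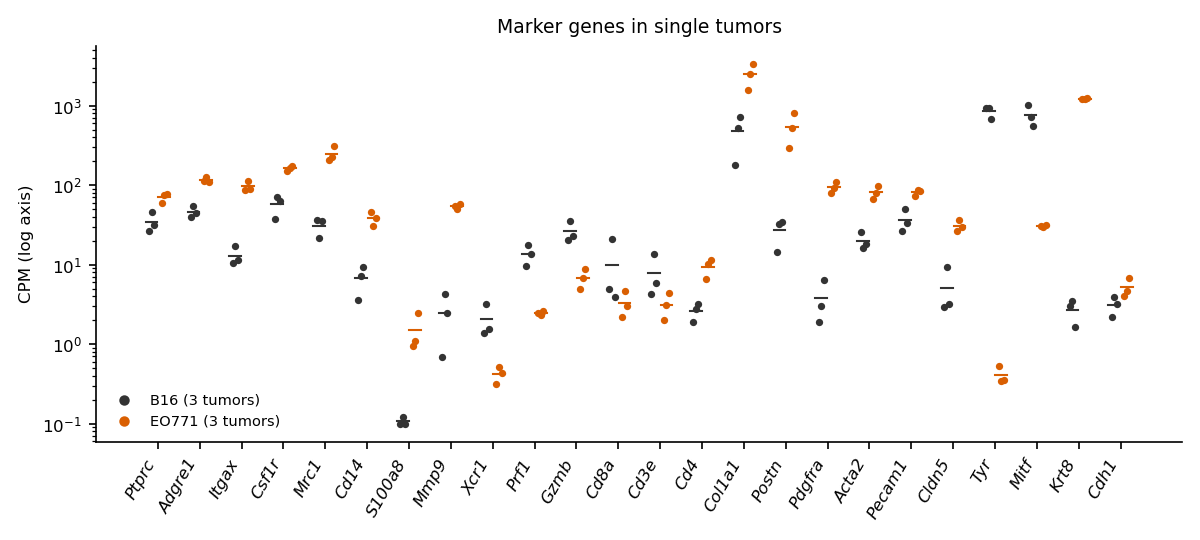
Level of 24 genes in each of the 6 tumors (CPM, log axis), with B16 and EO771 tumors as points in separate columns and a line at each mean. Macrophage genes such as Adgre1 sit above their B16 values in all 3 EO771 tumors, Cd8a is spread in B16 because tumor 2 lies at 20.9 CPM, and Tyr and Krt8 separate the models by several powers of 10.

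Taken over the macrophage, monocyte, neutrophil and dendritic cell lists together, 26 of 51 tested genes were higher in EO771 and 4 in B16 (median log2 fold change 1.01). The shares over all tested genes were 18.9% and 17.8%. The 26 include the 7 neutrophil genes, whose number is no support because of the filter on low counts. Each model was also set against the mean of the LL2, MC38 and Pan02 models in a fit of all 15 tumors. Both comparisons use the same 9 tumors, so their values are given side by side and are not independent. Of the 51 myeloid genes, 39 were lower in B16 and 16 were lower in EO771 than that mean. All 7 tested neutrophil genes are among the 39, and 4 of them are among the 16. Over all genes tested in that fit the shares called lower were 20.9% for B16 and 14.9% for EO771, and the shares called higher were 12.8% and 8.48%. In the macrophage list 20 of 21 were lower in B16, with a median log2 difference of -1.78, and 3 of 21 were lower in EO771, with a median of -0.39. Adgre1 read 49.7 to 171 CPM (median 99.6) in the 9 other tumors, and the EO771 tumors lay within that range. Itgax read 9.79 to 125 CPM (median 41.5) there. Monocyte genes were low in both, with 6 of 8 lower in B16 and 5 of 8 lower in EO771.

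**Figure D3:**
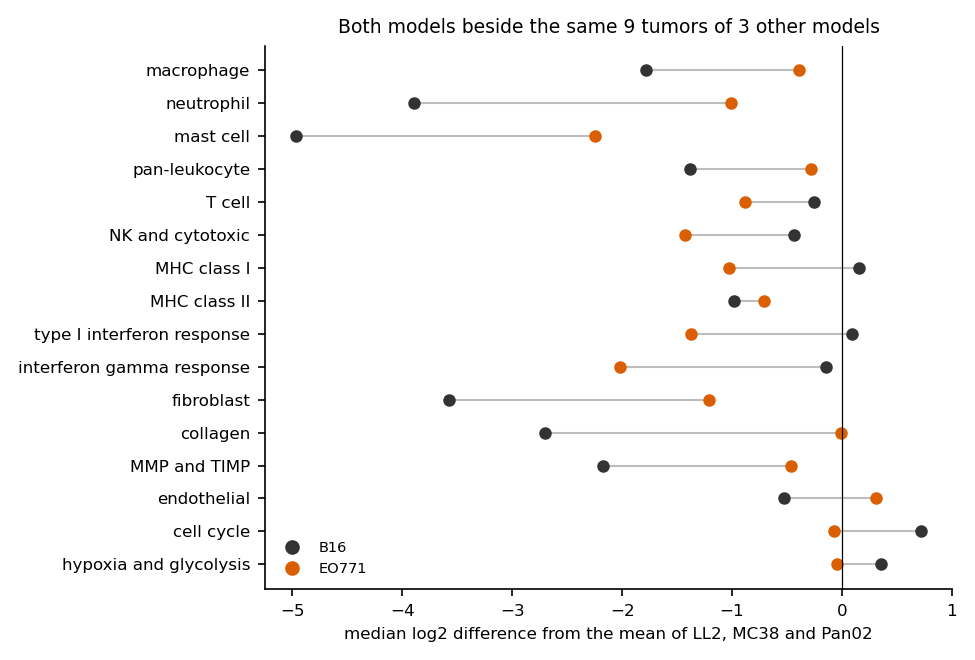
Median log2 difference of each model from the mean of the LL2, MC38 and Pan02 tumors (horizontal axis) for 16 gene lists, with 1 point for B16 and 1 for EO771 per list. The macrophage points lie at -1.78 for B16 and -0.39 for EO771, whereas the interferon gamma response points lie at -0.14 for B16 and -2.02 for EO771.

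Of 8 listed myeloid growth factors, 4 were tested, and Csf2, Csf3, Il3 and Il5 were not. Of the 4 tested, 3 were higher in EO771 and 0 in B16 (median log2 fold change 2.23), where 18.9% of all tested genes were higher in EO771. Il34, the second ligand of the Csf1r receptor, read 1.19, 1.58 and 1.03 CPM in B16 and 97.7, 98.1 and 119.8 CPM in EO771, with a log2 fold change of 6.37 ± 0.17 (SE), adjusted p = 2.0e-09. Csf1, the first ligand of that receptor, read 42.6, 54 and 48.8 CPM in B16 and 188, 191 and 187 CPM in EO771 (log2 fold change 1.96 ± 0.10 (SE), adjusted p = 9.4e-08). Kitl, the ligand that mast cells need, changed by 2.51. Flt3l, the dendritic cell growth factor, was not called (0.73). Both ligands of the receptor and the receptor itself were thus higher in EO771. The groups did not overlap for any of them, which held for 75.1% of all tested genes. In the 2 EO771 CAF libraries Il34 read 32.1 and 34 RPKM and Csf1 72.6 and 75.2 RPKM.

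Chemokine ligands leaned the same way, with 10 of 23 tested higher in EO771 and 2 in B16. Ccl8, a ligand that attracts monocytes and is made by macrophages, read 31.7, 44.4 and 46 CPM in B16 and 164, 190.0 and 212 CPM in EO771 (log2 fold change 2.2 ± 0.15 (SE), adjusted p = 7.7e-07). Pf4 and Ccl12, which macrophages and platelets or monocytes make, changed by 2.26 and 2.23, and Cxcl16, a membrane-bound ligand, by 1.92. Ccl6 and Cxcl9 were not called (0.52 and -0.49). The 2 that were higher in B16 were Ccl3 (-2.09), an inflammatory chemokine, and Cxcl10, an interferon-induced ligand that draws T cells through Cxcr3. Cxcl10 read 64.9, 79.8 and 83.4 CPM in B16 and 25.6, 22.5 and 25.3 CPM in EO771 (log2 fold change -1.64 ± 0.12 (SE), adjusted p = 1.2e-06).

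Among chemokine receptors 7 of 13 tested were higher in EO771 and 3 in B16. Ackr3, a scavenger of chemokines found on stromal and cancer cells, read 3.18, 6.25 and 8.85 CPM in B16 and 207, 207 and 236 CPM in EO771 (log2 fold change 5.07 ± 0.24 (SE), adjusted p = 7.1e-08). The decoy receptor gene Ackr2 changed by 2.58 and Cxcr4, the receptor for the stromal ligand CXCL12, by 1.16. Higher in B16 were Xcr1, Ccr10 (-1.66), a receptor of skin-homing lymphocytes, and Cxcr3, the receptor of activated T cells. Cxcr3 read 16.2, 15.5 and 19.4 CPM in B16 and 1.37, 1.62 and 2.61 CPM in EO771, with a log2 fold change of -3.22 ± 0.24 (SE), adjusted p = 1.7e-06. The Cxcl10 and Cxcr3 pair was therefore higher in B16 on both sides. Cxcr3 was even across the B16 tumors, whereas the T cell list summed to 76.5, 169 and 82.0 CPM there. The source of Cxcr3 in these tumors was not tested.

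Genes of macrophage activation were mixed in direction. Of 12 alternative activation genes, 4 were higher in EO771 and 1 in B16. Mrc1 and Mgl2 (3.18), both lectins, and Stab1 (1.27), a scavenger receptor, were higher in EO771, as was the chemokine gene Ccl24 (1.99). Arg1, which depletes arginine and is the usual marker of suppressive macrophages, went the other way, at 40.3, 45.9 and 29.2 CPM in B16 and 13.5, 14.1 and 16.6 CPM in EO771 (log2 fold change -1.38 ± 0.18 (SE), adjusted p = 6.7e-05). Maf, a macrophage transcription factor, was not called (-0.49). Of 11 tested inflammatory activation genes, 5 were higher in EO771 and 1 in B16. Il1b, the inflammatory cytokine, read 1.19, 2.0 and 2.8 CPM in B16 and 10.1, 19.7 and 37.9 CPM in EO771 (log2 fold change 3.41), and Cd80, a costimulatory ligand of T cells, changed by 2.02 and the inflammasome sensor gene Nlrp3 by 1.89. Il1a, a relative of Il1b, and Cd86, another costimulatory ligand, changed by 1.37 and 1.33. Nos2, the inducible nitric oxide synthase, was not called (-0.99). Il18, a cytokine that drives interferon gamma release, was the member higher in B16 (-1.07). The count higher in B16 was 4 without B16 tumor 1, 0 without B16 tumor 2 and 2 without B16 tumor 3, EO771 tumor 1 or EO771 tumor 2.

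Of 21 tested genes listed as immunosuppressive, 11 were higher in EO771 and 3 in B16 (median log2 fold change 1.0), and the 3 became 5 without B16 tumor 1. Ptges, the terminal enzyme of prostaglandin E2 synthesis, read 1.79, 1.82 and 2.66 CPM in B16 and 163, 121 and 147 CPM in EO771 (log2 fold change 6.05 ± 0.18 (SE), adjusted p = 3.8e-09). Nt5e, which encodes CD73 and makes adenosine outside the cell, read 2.59, 2.49 and 2.26 CPM and 137, 134 and 156 CPM (log2 fold change 5.87 ± 0.13 (SE), adjusted p = 5.4e-10). Tgfb1, a cytokine that restrains T cells and activates fibroblasts, read 95.3, 138 and 96.9 CPM and 391, 408 and 404 CPM (log2 fold change 1.86 ± 0.14 (SE), adjusted p = 1.6e-06). These 3 did not overlap between the groups. Lgals3, a galectin of macrophages and cancer cells, changed by 2.01, and Lgals1 and the angiogenic factor gene Vegfa were not called (0.51 and 0.67).

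Cd274, which encodes PD-L1, the checkpoint ligand that interferon gamma induces, was higher in B16. It read 50.1, 65.7 and 33.7 CPM in B16 and 18.8, 18.5 and 17 CPM in EO771, and the log2 fold change was -1.45 ± 0.21 (SE), adjusted p = 1.8e-04. B16 tumor 3 was the lowest of its group and was still above every EO771 tumor. Arg1 and Lgals9 (-1.19), a galectin that binds the T cell checkpoint TIM-3, were the other 2 higher in B16.

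Complement genes were called in both directions. Of 17 tested, 3 were higher in EO771 and 4 in B16. These shares, 17.6% and 23.5%, are near the 18.9% and 17.8% of all tested genes. The 3 were C1qa, C1qb and C1qc, counted with the macrophage genes above, and leaving out B16 tumor 3, EO771 tumor 1 or EO771 tumor 2 brought the count to 6, 5 and 6. On the B16 side, C4b, the substrate of the classical and lectin pathways, and C2, its partner, changed by -2.66 and -3.68, and the protease gene C1ra and the inhibitor gene Cd59a by -1.67 and -1.41. For C2, 64.2% of the exon length overlaps another gene, and reads of the 2 cannot be told apart without strand.

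T cell genes leaned towards B16. Of 20 tested T cell genes, 6 were higher in B16 and 1 in EO771 (median log2 fold change -0.86). Cd8a, the co-receptor of cytotoxic T cells, read 4.98, 20.9 and 3.94 CPM in B16 and 2.16, 4.68 and 3.05 CPM in EO771 (log2 fold change -1.63 ± 0.61 (SE), adjusted p = 0.036). B16 tumor 2 stood far above the other tumors, and B16 tumor 3 lay below the highest EO771 tumor, so the groups overlapped. Without B16 tumor 2 the log2 fold change of Cd8a was -0.47 and it was not called. Cd3e, a chain of the T cell receptor complex, read 4.28, 13.5 and 5.8 CPM in B16 and 2.01, 3.06 and 4.36 CPM in EO771 (log2 fold change -1.37 ± 0.44 (SE), adjusted p = 0.019), with overlap as well. Tbx21, the factor of interferon gamma-producing T and NK cells, and Lck, the kinase of the T cell receptor, changed by -1.53 and -1.3, and the receptor chain gene Cd3d and the costimulatory receptor gene Cd28 by -1.29 and -1.13. Foxp3, the factor of regulatory T cells, and Cd247, a signaling chain of the receptor, were not called (-0.16 and 0.18), and 68.5% of the exon length of Cd247 is shared with another gene. These calls changed when single libraries were left out. The count higher in B16 was 0 without B16 tumor 2, 0 without EO771 tumor 1 and 3 without EO771 tumor 2, and it was 0 in the fit of all 15 tumors.

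Cd4, the co-receptor of helper T cells, went the other way. It read 1.89, 2.73 and 3.15 CPM in B16 and 6.49, 10.2 and 11.4 CPM in EO771 (log2 fold change 1.81 ± 0.28 (SE), adjusted p = 2.4e-04), and all 3 EO771 tumors were above all 3 B16 tumors. Without B16 tumor 2, 2 T cell genes were higher in EO771 in place of 1. The co-receptors of the cytotoxic and the helper T cell were therefore called in opposite directions, and of the pair only Cd4 was free of overlap.

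Cytotoxic genes held some of the clearer lymphocyte differences. Of 9 tested NK and cytotoxic genes, 5 were higher in B16 and 0 in EO771 (median log2 fold change -1.24), and the count was 3 when B16 tumor 2 or EO771 tumor 1 was left out, and 3 in the fit of all 15 tumors. Prf1, the pore-forming protein of killer lymphocytes, read 9.55, 17.8 and 13.5 CPM in B16 and 2.43, 2.3 and 2.61 CPM in EO771, with a log2 fold change of -2.48 ± 0.25 (SE), adjusted p = 1.3e-05. Gzmb, the protease that passes through that pore, read 20.2, 35.1 and 23.1 CPM in B16 and 4.91, 6.81 and 8.8 CPM in EO771 (log2 fold change -1.96 ± 0.26 (SE), adjusted p = 8.9e-05). Both were separate between the groups in every tumor. Eomes, a factor of NK and memory T cells, and Nkg7, a granule protein of killer cells, changed by -2.31 and -1.29, and the inhibitory receptor gene Klrc1 by -1.24. Klrk1, an activating receptor of NK and cytotoxic T cells, was not called (-0.44). Ncr1, which encodes the NK receptor NKp46, read 0.796, 0.243 and 0.492 CPM in B16 and 0.475, 1.02 and 0.523 CPM in EO771 and fell under the filter on low counts.

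B and plasma cell genes were sparse, with 3 of 11 tested, 2 of them higher in EO771 and 0 in B16, under the same limit from the filter. The count higher in EO771 was 4 when B16 tumor 1, B16 tumor 2 or EO771 tumor 2 was left out, and 4 in the fit of all 15 tumors. Cd79a, a chain of the B cell receptor complex, read 0.199, 0.243 and 0.344 CPM in B16 and 8.55, 5.02 and 5.66 CPM in EO771 (log2 fold change 4.52). Its partner chain gene Cd79b changed by 1.55 and Jchain, of plasma cells, was not called (0.12). Pax5, the factor that commits cells to the B lineage, was listed at 0 in the B16 tumors and at 0.17 to 0.633 CPM in EO771. Cd79a also read 3.71 and 4.63 RPKM in the CD45-negative CAF libraries of EO771, and its source in these tumors was not tested.

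The response genes of interferon gamma separated the models. Of 17 tested, 13 were higher in B16 and 1 in EO771, a share of 76.5% against the 17.8% of all tested genes higher in B16, and the median log2 fold change was -2.07. The list also holds the ligand gene Ifng, which is 1 of these 13. Their summed level was 1686 to 2341 CPM in B16 and 397 to 429.7 CPM in EO771. The NK and cytotoxic list summed to 44 to 87.2 CPM in B16 and 18.1 to 25.8 CPM in EO771 in the same tumors, and its part in this result was not tested. Igtp and Irgm2, GTPases that act on vacuoles of intracellular pathogens, were among the largest. Irgm2 read 193, 232 and 143 CPM in B16 and 12.5, 15.1 and 14.8 CPM in EO771 (log2 fold change -3.75 ± 0.18 (SE), adjusted p = 8.3e-08). Igtp read 249, 358 and 223 CPM and 21.9, 22.4 and 20.2 CPM (log2 fold change -3.68 ± 0.18 (SE), adjusted p = 7.8e-08). Every B16 tumor exceeded every EO771 tumor for both genes. Irf1, the first transcription factor of the response, changed by -1.97, and the further GTPase genes Irgm1 and Iigp1 by -3.25 and -2.52. Sequence relatives such as Irgm1 and Irgm2 may exchange reads. Socs1, the feedback inhibitor of the same pathway, was the member higher in EO771, with 13.9, 32.8 and 28.6 CPM in B16 and 66.4, 64.5 and 69.7 CPM in EO771 (log2 fold change 1.39 ± 0.24 (SE), adjusted p = 5.1e-04).

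The ligand itself was scarce. Ifng read 0.995, 2.31 and 1.03 CPM in B16 and 0.264, 0.0851 and 0.436 CPM in EO771 (log2 fold change -2.45). Type I interferon response genes followed, and 20 of 26 were higher in B16 and 0 in EO771 (median log2 fold change -1.37). Bst2, a membrane tether that holds back budding viruses, and Rsad2, an antiviral enzyme, were among the 4 with the highest CPM and changed by -1.29 and -2.06. Cmpk2, a mitochondrial kinase induced with Rsad2, gave the largest change of the list (-2.53). Irf7, the amplifier of type I interferon production, was not called, at 70.3, 79 and 49.2 CPM in B16 and 71.7, 80.7 and 62.8 CPM in EO771 (log2 fold change 0.12 ± 0.17 (SE), adjusted p = 0.53).

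The interferon lists were also set beside the other 3 models. Of 17 interferon gamma response genes, 14 were lower in EO771 and 1 was lower in B16 than the mean of LL2, MC38 and Pan02, with median log2 differences of -2.02 and -0.14. Of 26 type I interferon genes, 16 were lower in EO771 and 2 in B16. The word GAAA followed by any 2 bases and GAAA again, part of the element that interferon response factors and the ISGF3 complex bind, stood on either strand of the 300-base RefSeq promoter in 9 of 12 interferon gamma genes with an entry, 75.0%, and in 10 of 18 type I genes, 55.6%, against 3.99% of all genes. A match describes these letters and says nothing of what binds there.

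Antigen presentation by class I followed, with 7 of 12 genes higher in B16 and 0 in EO771 (median log2 fold change -1.16). H2-K1, a class I heavy chain, read 1449.7, 2244 and 1188 CPM in B16 and 535, 600.1 and 527 CPM in EO771 (log2 fold change -1.55 ± 0.20 (SE), adjusted p = 8.2e-05). B2m, the light chain that all class I molecules share, read 1942, 2545 and 1490.0 CPM and 980.3, 956 and 849 CPM (log2 fold change -1.1 ± 0.17 (SE), adjusted p = 2.7e-04). Psmb10 and Psmb9, interferon-induced subunits of the immunoproteasome, changed by -2.45 and -2.16. H2-D1, another heavy chain, and Tapbp, which loads peptide, were not called (-0.59 and -0.53). Class I heavy chains are near-identical copies, so reads may be split between them by the counting. Class II genes gave 0 calls in either direction among 10 tested by edgeR and by DESeq2, with 0 at an unadjusted edgeR p under 0.05, and all 10 overlapped between the groups. Cd74, the class II chaperone, read 382, 1069 and 586 CPM in B16 and 909, 1141 and 818 CPM in EO771 (log2 fold change 0.49 ± 0.31 (SE), adjusted p = 0.17), with B16 tumor 2 well above the other B16 tumors. The class II chains H2-Aa, H2-Ab1 and H2-Eb1 gave 0.48, 0.44 and 0.60. Without B16 tumor 2 these 3 and Cd74 passed the adjusted p threshold, at 0.90, 0.87, 0.98 and 0.95, still under 2-fold.

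**Figure D4:**
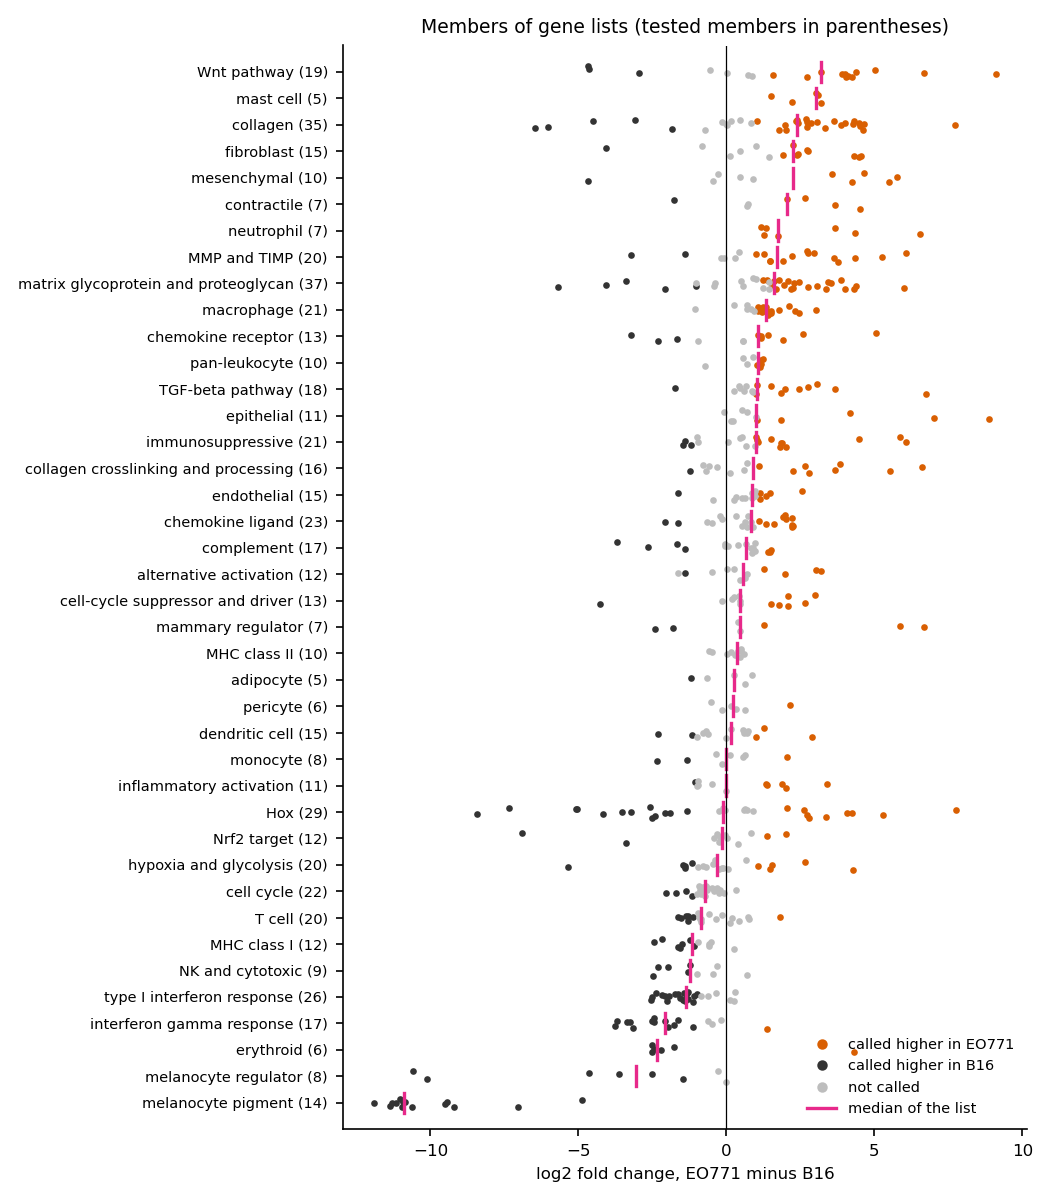
Log2 fold change (EO771 minus B16, horizontal axis) of each tested member of the 40 gene lists with at least 5 tested members, with orange points called higher in EO771, dark points called higher in B16, grey points not called and a pink bar at each list's median. Collagen, Wnt and fibroblast medians lie above 2, and the pigment, interferon gamma response and erythroid medians lie below -2.

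Stromal genes also differed. Of 15 tested fibroblast genes, 9 were higher in EO771, 1 was higher in B16 and 5 were not called (median log2 fold change 2.26), and the summed level was 813 to 2156 CPM in B16 and 5210.4 to 10687 CPM in EO771. Col1a1, the main chain of type I collagen, read 180.4, 529.8 and 721 CPM in B16 and 1591, 2482 and 3388 CPM in EO771 (log2 fold change 2.38 ± 0.44 (SE), adjusted p = 8.8e-04). B16 tumor 1 was the lowest of its group and EO771 tumor 3 the highest of all, and the groups did not overlap. Pdgfra, the growth factor receptor of mesenchymal fibroblasts, read 1.89, 3.04 and 6.35 CPM and 80.2, 91.8 and 109.9 CPM (log2 fold change 4.54 ± 0.30 (SE), adjusted p = 7.1e-07). Col3a1 and Col6a3, further fibrillar and beaded-filament collagens, changed by 2.42 and 4.48, and Col1a2, the partner chain of Col1a1, by 2.74. Fap, which encodes the surface protease by which the CAFs of the study were gated, read 0.299, 1.27 and 1.43 CPM in B16 and 0.897, 0.936 and 1.74 CPM in EO771 and was not called (log2 fold change 0.11 ± 0.48 (SE), adjusted p = 0.84). Dcn, Dpt, Mfap5 and Pdpn, which encode matrix proteins and the mucin-like podoplanin, were not called either (1.44, 0.48, 1.01 and -0.81). Without B16 tumor 3, and with the replicate block, Dcn, Dpt and Mfap5 were called higher in EO771 and the count was 12. Set beside the mean of LL2, MC38 and Pan02, 13 of the 15 were lower in B16 and 8 in EO771, with median log2 differences of -3.57 and -1.21. Fbln1, an elastic fiber protein, was the member higher in B16, at 309, 317 and 336 CPM against 11.9, 18.8 and 27.1 CPM (log2 fold change -4.08).

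Contractile genes gave 4 of 7 higher in EO771 and 1 in B16. Acta2, which encodes smooth muscle actin, the marker of myofibroblasts, read 25.9, 16.1 and 18 CPM in B16 and 66.3, 79.9 and 98.3 CPM in EO771 (log2 fold change 2.04 ± 0.19 (SE), adjusted p = 8.5e-06). Tpm2, a tropomyosin, and Cnn1, calponin, changed by 4.52 and 3.66, Tagln, an actin-binding protein that shares 60.9% of its exon length with another gene, by 2.66, the related Tpm1 was not called (0.69), and Mylk, the myosin light chain kinase, was higher in B16 (-1.77). Of 6 pericyte genes, only Pdgfrb, the receptor that recruits pericytes to vessels, was called, at 18, 31.6 and 20.4 CPM in B16 and 77.5, 103 and 132 CPM in EO771 (log2 fold change 2.15 ± 0.24 (SE), adjusted p = 2.4e-05), and 2 were called without B16 tumor 1 or B16 tumor 2. Rgs5, Notch3 and Abcc9 gave 0.32, -0.52 and 0.16.

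Endothelial genes were less divided, with 5 of 15 higher in EO771 and 1 in B16 (median log2 fold change 0.86), and 8 higher in EO771 when B16 tumor 2 was left out. Pecam1, which encodes CD31, the junction protein by which vessels are counted, read 26.8, 49.8 and 33.5 CPM in B16 and 73.2, 87.5 and 85 CPM in EO771 (log2 fold change 1.15 ± 0.19 (SE), adjusted p = 4.6e-04). Cldn5 and Cdh5, which seal endothelial junctions, changed by 2.56 and 1.47, the vessel genes Egfl7 and Vwf by 1.13 and 1.33, and Plvap, of fenestrated vessels, was not called (0.53). Eng, which encodes a TGF-beta co-receptor of activated endothelium, was the member higher in B16, at 456, 545 and 516 CPM against 144, 184 and 160.2 CPM (log2 fold change -1.64 ± 0.11 (SE), adjusted p = 9.2e-07).

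Matrix genes also differed. Of 35 tested collagen genes, 23 were higher in EO771, 65.7%, and 5 in B16 (median log2 fold change 2.38). Col7a1, the anchoring fibril collagen of the skin basement membrane, read 1.49, 3.04 and 1.82 CPM in B16 and 302, 502 and 570.0 CPM in EO771 (log2 fold change 7.71 ± 0.32 (SE), adjusted p = 2.8e-08). Col12a1 and Col5a1, which sit on or within type I fibrils, changed by 4.64 and 4.31. The 5 collagens higher in B16 were not fibrillar type I partners. Col4a5 and Col4a4, chains of specialised basement membrane, changed by -6.48 and -6.03, with Col4a5 at 19.2, 19.9 and 13.6 CPM in B16 and 0.264, 0.17 and 0.0871 CPM in EO771. Col10a1, Col20a1 and Col9a2, collagens known from cartilage or of minor abundance, completed the 5. Col20a1 and Col9a2 changed by -3.1 and -1.83, and Col10a1, with 3 counts in all of EO771, was lower there by 25.2-fold (95% counting interval 8.34 to 125).

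Among matrix glycoproteins and proteoglycans, 22 of 37 tested were higher in EO771 and 5 in B16 (median log2 fold change 1.63). The fibulins went in both directions. Fbln2, a fibulin of basement membrane and vessel wall, read 7.46, 32.3 and 45 CPM in B16 and 1501, 2038 and 2049 CPM in EO771 (log2 fold change 6.0 ± 0.51 (SE), adjusted p = 4.0e-06). Fbln5, a fibulin of elastic fibers, read 771, 650.4 and 630.0 CPM in B16 and 7.23, 15.3 and 18.2 CPM in EO771 (log2 fold change -5.69 ± 0.29 (SE), adjusted p = 1.1e-07). Spp1, which encodes osteopontin, changed by 3.88, Sparc, a collagen-binding protein, by 1.53, Hspg2, the perlecan of basement membrane, by 2.17 and Acan, the cartilage proteoglycan, by 4.39. Besides Fbln1 and Fbln5, those higher in B16 were Sparcl1 (-3.4), Emilin1 (-2.07) and Vtn (-1.03), which encode a SPARC relative, an elastic fiber protein and vitronectin.

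Enzymes that build and cut matrix leaned towards EO771. Of 16 crosslinking and processing genes, 8 were higher in EO771 and 1 in B16. Loxl4, a lysyl oxidase that crosslinks collagen, read 0.697, 0.971 and 1.28 CPM in B16 and 99.3, 102 and 105 CPM in EO771 (log2 fold change 6.61 ± 0.16 (SE), adjusted p = 9.5e-10), Pcolce2, an enhancer of procollagen trimming, changed by 5.54, and Plod2, a lysyl hydroxylase, was higher in B16 (-1.21). Bmp1 and Pcolce, which trim procollagen or help to, changed by 3.67 and 1.09, and the collagen chaperone gene Serpinh1 and the hydroxylase gene Plod1 were not called (0.13 and -0.69). Of 20 tested matrix metalloproteinases and their inhibitors, 14 were higher in EO771 and 2 in B16. Mmp13, a collagenase, read 5.28, 6.5 and 2.71 CPM in B16 and 157, 163 and 220.2 CPM in EO771 (log2 fold change 5.26 ± 0.27 (SE), adjusted p = 1.1e-07). Mmp10, a stromelysin, and Mmp12, the macrophage elastase, changed by 6.08 and 3.62. Timp2, an inhibitor, changed by 1.47, and Mmp14, the membrane collagenase, was not called (0.42). The 2 higher in B16, Mmp16 (-3.23) and Mmp17 (-1.39), encode proteases held in the cell membrane.

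Of 18 TGF-beta pathway genes, 10 were higher in EO771, 1 was higher in B16 and 7 were not called. Smad7, the inhibitory SMAD that the pathway induces on itself, changed by 3.68. Ltbp4 and Ltbp3, which tether the latent cytokine to matrix, gave 3.07 and 0.67, of which Ltbp4 was called, whereas Smad6, the inhibitory SMAD of the related BMP branch, was higher in B16 (-1.73).

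Of 19 tested Wnt pathway genes, 12 were higher in EO771, 63.2%, 3 were higher in B16 and 4 were not called (median log2 fold change 3.21). Another 8 of the 27 listed fell under the filter on low counts. Some members, such as Wnt10b, passed it through the EO771 tumors alone, so the limit given for neutrophil genes holds here. The ligands led the list. Wnt7b, a ligand of epithelial origin (chr15:85535437-85581821), read 0.796, 1.09 and 0.738 CPM in B16 and 459, 509.8 and 511 CPM in EO771, with a log2 fold change of 9.12 ± 0.15 (SE), adjusted p = 2.4e-10. Wnt10b, a mammary ligand, read 0.398, 0.546 and 0.344 CPM and 40.5, 50.03 and 43.9 CPM (log2 fold change 6.68 ± 0.20 (SE), adjusted p = 3.8e-09). The 3 members higher in B16 were the secreted Wnt modulators Dkk3 (-4.67) and Frzb (-4.64) and the target gene Axin2. Axin2, a feedback inhibitor that canonical Wnt signals induce, read 37.8, 48.6 and 35.7 CPM in B16 and 3.69, 5.79 and 6.62 CPM in EO771 (log2 fold change -2.96 ± 0.22 (SE), adjusted p = 1.3e-06). Members that are not ligands were thus called in both directions, with Dkk3, Frzb and Axin2 higher in B16 and Nkd1 and Sfrp2 higher in EO771. Tcf7, a factor that carries the signal to DNA and also a T cell gene, was not called (0.01).

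Several cancer driver genes differed between the models. Met, the receptor of hepatocyte growth factor and a direct target of MITF in melanocytes, read 2458, 2239 and 1914 CPM in B16 and 110.5, 118 and 117 CPM in EO771 (log2 fold change -4.26 ± 0.12 (SE), adjusted p = 2.7e-09). Myc, the growth-promoting factor, read 94.6, 83.3 and 107 CPM in B16 and 830.0, 695 and 761 CPM in EO771 (log2 fold change 3.0 ± 0.12 (SE), adjusted p = 2.1e-08). Egfr, the epidermal growth factor receptor, and Cdkn1a, the cell-cycle inhibitor p21, changed by 2.66 and 2.08, and cyclin D1 (Ccnd1) by 1.52. Cdkn2b, the cell-cycle inhibitor p15, changed by 1.79. In all, 6 of 13 genes of this list were higher in EO771 and 1 in B16.

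Cell-cycle genes were higher in B16 where they were called, with 4 of 22 higher in B16 and 0 in EO771 (median log2 fold change -0.71), a share near the 17.8% of all tested genes, and 8 when B16 tumor 2 was left out. Mki67, the marker of cycling cells, read 361, 238 and 302 CPM in B16 and 70.7, 68.7 and 77.6 CPM in EO771 (log2 fold change -2.05 ± 0.14 (SE), adjusted p = 9.9e-07). Mcm2, a subunit of the replication helicase, read 748, 531 and 819 CPM and 229, 226 and 192 CPM (log2 fold change -1.69 ± 0.16 (SE), adjusted p = 6.9e-06). Tyms and Rrm2, enzymes of nucleotide synthesis, changed by -1.35 and -1.16. Top2a and Mcm6, of the same phases, stayed under 2-fold (-0.81 and -0.80). Myc was thus called higher in EO771, and no gene of the cell-cycle list was.

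Genes that hypoxia induces were called in both directions, with 5 of 20 higher in each model. For a list of 20, neither share stood far from the 18.9% (EO771) and 17.8% (B16) of all tested genes. Car9, a carbonic anhydrase of hypoxic tumor cells, read 109, 128 and 107 CPM in B16 and 3.69, 2.47 and 2.0 CPM in EO771 (log2 fold change -5.33 ± 0.19 (SE), adjusted p = 8.9e-09). Egln3, an oxygen sensor induced by its own target factor, went the other way at 10.9, 14.9 and 12.6 CPM and 319, 212 and 226 CPM (log2 fold change 4.28 ± 0.19 (SE), adjusted p = 3.6e-08). Ndrg1, a stress gene, and Slc2a1, the glucose transporter GLUT1, were higher in EO771 (2.65 and 1.53), and so were Slc16a3, the lactate exporter (1.48), and Adm, a vasodilator peptide (1.08). The glycolytic enzymes Pfkl, Aldoa and Eno1 were higher in B16 (-1.47, -1.4 and -1.15), as was Bnip3, a mitophagy receptor (-1.38), and Ldha, which makes lactate, was not called (-0.11). The word ACGTG, the core of the hypoxia response element, stood in the promoters of 14 of 19 of these genes with an entry, 73.7%, against 21.8% of all genes. Of 12 Nrf2 targets, the genes of the oxidative stress response, 2 were called in each direction, a share near that of all tested genes. Gsta4 and Gstm1, glutathione transferases, were higher in B16 (-6.91 and -3.39), and Srxn1 and Nqo1, which reduce oxidised proteins and quinones, were higher in EO771 (2.0 and 1.38). The 4 members with the highest CPM, Txnrd1, Hmox1, Nfe2l2 and Gsr, were not called (-0.23, -0.30, -0.43 and 0.83).

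Hox genes, which record the position of a cell's origin along the body, gave each model its own set. Of 29 tested, 13 were higher in B16 and 9 in EO771, and 23 did not overlap between the groups, a share near the 75.1% of all tested genes. Within the Hoxd cluster the 2 models used different members. Hoxd13, the last gene of the cluster, read 21, 16 and 20.5 CPM in B16 and 0, 0.0851 and 0.0871 CPM in EO771, which is 2 counts in all and a ratio of group totals of 402-fold (95% counting interval 111 to 3321). Hoxd10 read 0, 0.182 and 0.0492 CPM in B16 and 20.4, 20.1 and 20.2 CPM in EO771 (log2 fold change 7.76). Hoxd9 and Hoxd8, next to it, were higher in EO771 too (5.29 and 4.23). Hoxa11, a gene of the distal limb and reproductive tract, changed by -7.33, and Hoxa10, next to it, by -1.9. In the Hoxc cluster, Hoxc4, Hoxc5, Hoxc6, Hoxc8, Hoxc9 and Hoxc10 were all higher in EO771, from 2.04 for Hoxc8 to 4.09 for Hoxc6. Neighbouring Hox genes overlap in part on either strand, and reads of such neighbours cannot be told apart here.

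**Figure D5:**
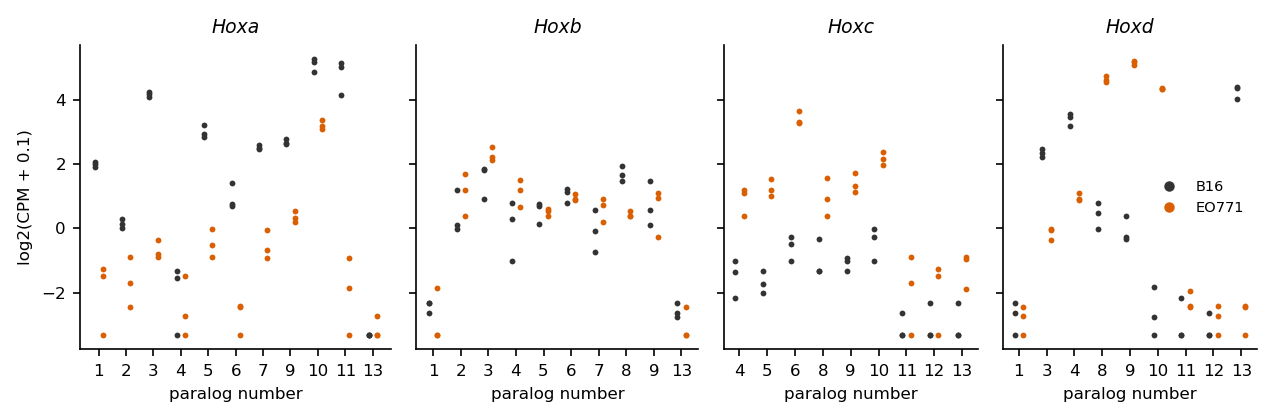
Level of the 39 listed Hox genes, of which 29 were tested (log2 of CPM plus 0.1, vertical axis), in the 3 B16 and 3 EO771 tumors. There is 1 panel per cluster, with genes in their order of number. In the Hoxd panel EO771 points are high at Hoxd8 to Hoxd10 and near the bottom at Hoxd13, where the B16 points lie between 16 and 21 CPM.

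A tumor fragment can carry along blood, muscle, fat and skin. Of 6 tested erythroid genes, 5 were higher in B16 and 1 in EO771, with a summed level of 30.7 to 162 CPM in B16 and 18.4 to 29 CPM in EO771. Hbb-bs, a hemoglobin chain of red cells, changed by -2.45, Alas2, of heme synthesis, by -1.76, and Slc4a1, the anion exchanger of the red cell membrane, was higher in EO771 (4.31). The hemoglobin gene Hbb-bt changed by -2.21. The hemoglobin genes Hba-a1 and Hba-a2 are near-identical and their reads may be split. Skeletal muscle genes were 3 tested of 9, with Ckm, the muscle creatine kinase, higher in EO771 (2.28) and Acta1 and Mylpf not called (0.24 and 0.31), and summed to 6.74 to 7.96 CPM in B16 and 11.2 to 14 CPM in EO771. Adipocyte genes were 5 tested of 8 and summed to 36.8 to 43.3 CPM and 18.6 to 41.3 CPM. Their single call, Fabp4, a fatty acid carrier also found in endothelium and macrophages, was higher in B16 (-1.19) and was lost without EO771 tumor 2 or EO771 tumor 3, and Pck1, Cfd and Cidec were not called (-0.64, 0.25 and 0.85). Of 10 keratinocyte genes, only Krt14, a basal keratin that mammary epithelium also carries, was tested, with 1 count in all of B16 and a ratio of group totals of 393-fold (95% counting interval 70.1 to 15573), and the list summed to 0.0995 to 0.546 CPM in B16 and 7.18 to 11.9 CPM in EO771. The part of blood in the other differences was not tested. Xist, the transcript that silences an X chromosome in female cells, read 29.1, 37.5 and 19.2 CPM in B16 and 39.7, 58.5 and 64.7 CPM in EO771 and was not called (log2 fold change 0.92 ± 0.24 (SE), adjusted p = 0.0069).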

How the data were processed

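The authors aligned reads to mm10 with STAR 2.5.0c and counted them with HOMER, and the submitters' processing notes also name DESeq2. The deposited tumor table holds estimated counts per RefSeq transcript in steps of 0.5, not divided by depth, and the deposited CAF table holds RPKM per gene, which was read for EO771 only and not tested. The columns of 5 samples that the labels do not list were left out. For each symbol the transcript with the largest mean count in the 6 tumors was kept, which gave 24940 symbols from 40458 transcripts, of which 2 named no gene and held at most 4.06e-05% of a library's counts. Each count was raised to the next whole number, genes with low counts were removed by filterByExpr, and EO771 was tested against B16 by the quasi-likelihood test of edgeR 4.0.16 (R 4.3.3) on TMM-scaled libraries, with Benjamini-Hochberg adjustment over 14298 genes. TMM moved the median log2 fold change by 0.0044 from total-count scaling. A second fit of all 15 tumors set each model against the mean of LL2, MC38 and Pan02. The procedure was tested on simulated data. Alternatives were DESeq2 1.42.0, other scalings, filters and transcripts, a replicate block and leaving out each tumor.

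The members, gene lists and tests were chosen with earlier results of these data known. Named genes follow a rule, which takes 20 fixed genes, the 10 largest folds in each direction without overlap and with at least 10 CPM on the higher side, the 5 largest differences in mean CPM in each direction, and in each list the 4 members with the highest CPM, the 2 called members with the largest change in each direction and any called member against the majority. Outside it, Ifng, Mc1r, Nkd1, Sfrp2, Slc2a1 and Tyms, and genes that complete small counts within a list (such as Cd83, Snai1 and Vwf), were named after their values were seen. So were some members that were not called or not tested, such as Cd163, Batf3 and Csf2. Some genes that the rule names are not reported here. Where a list had 0 calls in a direction, DESeq2 called 0 there as well and at most 1 member had an unadjusted edgeR p under 0.05. Intervals on ratios of counts are exact 95% intervals and cover counting error only. Exon overlap was computed from the GENCODE vM21 annotation.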

Additional observations from a re-analysis of the deposited data

How the results depend on the processing

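The count of genes higher in EO771 was 2699 and ran from 2085, when a change beyond 2-fold was itself tested (glmTreat), to 3287 without a filter on low counts, and leaving out each tumor in turn gave 2730 to 2799. The count higher in B16 was 2538 and ran from 1947 to 2895 under the same pair of settings, with 2501 to 2686 when each tumor was left out. Without the 2-fold limit the counts were 5122 and 4956. DESeq2 called 2612 and 2521, of which 2610 and 2494 were shared with edgeR. Of the myeloid genes, 26 were higher in EO771, with 22 to 27 when each tumor was left out and 17 with glmTreat. The 4 higher in B16 became 2 in the fit of all 15 tumors and with glmTreat, 7 without the 2-fold limit and 3 to 6 when each tumor was left out.

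Replicate numbers do not mark shared animals in the labels. Deviations from the group means correlated at 0.116, 0.086 and 0.090 between tumors of the same number, and each tumor correlated best with its own number, a hint from the data and not from the design. With the replicate block, 2742 genes were higher in EO771 and 2527 in B16, and 27 and 3 of the myeloid genes.

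The named genes that changed direction under an alternative were uncalled. When each tumor was left out, the log2 fold change ran from -0.0881 to 0.6164 for Abcc9, -0.0241 to 2.7778 for Dpt, -0.2428 to 0.4208 for Fap, -0.744 to 0.0536 for Snai2, -1.7672 to 1.5211 for Cfd, -0.7448 to 0.0456 for Cxcl9, -0.1849 to 0.8649 for F13a1, -0.0965 to 0.1591 for Fscn1, -0.0617 to 0.2576 for Irf7, -0.2867 to 0.4358 for Jchain, -0.423 to 0.0664 for Plac8 and -0.1144 to 0.0788 for Tcf7. Cd247 gave -0.0110 with the transcript of the largest count per kilobase and Cfd -0.0352 with the replicate block. Fscn1 gave -0.0099 with DESeq2, -0.0100 with RLE factors, -0.0013 with total counts and -0.0073 in the fit of all 15 tumors, and Tcf7 -0.0037, -0.0038 and -0.0014 with DESeq2, RLE factors and the 15-tumor fit. The cause was not tested. Cd8a, Cd3d, Cd3e, Cd28, Clec9a, Klrc1, Nkg7 and Tbx21 missed adjusted p under 0.05 without B16 tumor 2 and without EO771 tumor 1, and all but Tbx21 also without EO771 tumor 2 or 3. At a depth of 10035821 to 20208411.5 counts the filter left 10642 of 24940 listed genes untested, of which 4671 were listed at 0 in all 6 tumors, and 3 tumors per model limit every test.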
